A study of Mus musculus with 24 samples.

Results

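Hippocampal RNA of WT mice kept in an enriched environment (WT EE) was compared with that of MSK1 kinase-dead mice in the same housing (KD EE), which addresses what the kinase activity of MSK1 contributes to gene expression after enrichment. The comparison rests on 10 of the 24 libraries of the series, chosen by their labels: libraries 16, 17, 33A, 31B and 35A are WT EE, and libraries 7, 8, 32A, 36A and 9 are KD EE. A further library of each group failed the quality control of the study and was left out, 33B for its ribosomal RNA and 34B for ribosomal RNA, few reads and duplicated sequences. The study also removed 31B, 35A and 9, and gave poor correlation within the group as its reason. The comparison is therefore given over all 10 libraries (5 against 5) and over the 7 that the study kept (3 WT EE against 4 KD EE). Likeness within the group was the criterion by which those 7 were kept, so the small spread among them is partly a product of that choice. In the counts used here, the mean correlation with the own group was lowest for 35A in WT EE (0.983) and for 9 in KD EE (0.969). That of 31B (0.984947) was not below that of the kept library 17 (0.984905).

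All mice were males of the C57-Bl/6J background, to which the line had been backcrossed from C57-Bl/6n, and, per the labels, 12 weeks old, and whole hippocampus was taken for polyA RNA. The KD mice are homozygous for a point mutation (D194A) in every cell, which leaves the N-terminal kinase domain of MSK1 without activity. The WT and KD mice were bred as 2 homozygous lines rather than as littermates, so genotype and line cannot be told apart. Enriched mice of both genotypes lived from before birth in large cages with a running wheel, toys and ladders. The 12 standard-housed libraries that passed quality control (6 WT SH and 6 KD SH) serve here as background and in the test of the interaction of genotype and housing. The labels do not say that the libraries of a group come from separate mice, so the p-values measure only the spread between these libraries, which may in part be technical.

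MSK1, the product of Rps6ka5, is a nuclear kinase that ERK and p38 activate, for instance when BDNF binds its receptor TrkB. It phosphorylates the transcription factor CREB and histone H3, and by this route takes part in the induction of immediate early genes such as Egr1 and Arc. In the hippocampus these genes are known for their induction by synaptic activity and learning.

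The mutated codon and a pair of nearly identical genes are shown because the labels of the mice rest on the former and the single gene that edgeR called in this comparison is one of the latter. Rps6ka5 lies at chr12:100548439-100726983 on the minus strand of GRCm38. Codon 194, an Asp codon at chr12:100616030-100616032, is in exon 5 of 18 of the transcript Rps6ka5-201, within the coding sequence of 2589 bases. The reference sequence around it is given 5′ to 3′ on the coding strand (chr12:100616000-100616062), with the codon that the KD line carries in mutated form in capitals.
Rps6ka5: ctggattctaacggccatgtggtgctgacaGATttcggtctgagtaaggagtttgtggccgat

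Amd2 and Amd1 both encode S-adenosylmethionine decarboxylase, an enzyme of polyamine synthesis. Amd1 has 8 exons at chr10:40287458-40302186, and Amd2 is a single-exon copy at chr10:35708675-35711892, both on the minus strand of GRCm38. Their coding sequences are 1002 bases each and differ at 1 base (99.9% identity). The stretch of coding bases 739 to 798 that holds it is printed for both, with that base in capitals, from chr10:40290184-40290243 (exon 7 of Amd1) and chr10:35710762-35710821 (Amd2).
Amd1: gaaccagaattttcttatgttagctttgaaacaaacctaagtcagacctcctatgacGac
Amd2: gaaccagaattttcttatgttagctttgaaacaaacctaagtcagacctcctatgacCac
Of the 3169 stretches of 50 bases in the Amd2 transcript, 2715 (85.67%) are also present in the Amd1 transcript, so a read that lies wholly in a shared stretch fits both genes and is not counted when only unique alignments are. The share of such reads was not measured.

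The counts on genes ranged from 8911999 (library 9) to 56752074 (library 35A) per enriched library, with a median of 30265877.5, and from 13003876 to 45373840 in the 7 libraries. A floor of 3 counts corresponded to between 0.0529 and 0.337 CPM, the counts scaled to a library of fixed size, and covers counting error only. Mitochondrial genes took between 3.83% and 5.10% of the counts. No pair of libraries held identical counts. The levels of marker lists were read in each library. The mean log2 CPM of 8 pan-neuronal markers was between 9.11 and 9.25 in the 10 libraries. That of 8 dentate gyrus markers was between 5.58 and 5.87, and that of 12 markers of the CA fields between 5.96 and 6.14. No other tissue was set beside these levels, so they do not exclude RNA of neighbouring tissue. Libraries 31B and 35A had far less choroid plexus RNA than the other WT EE libraries, as the values of Ttr given further on show.

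Rps6ka5 RNA was present at similar levels in both groups. Its level was 21.5, 20.2, 21.6, 24.4 and 19.3 CPM in WT EE libraries 16, 17, 33A, 31B and 35A, and 20.7, 22, 24.0, 21.6 and 29.0 CPM in KD EE libraries 7, 8, 32A, 36A and 9. The groups overlapped, and library 9 was the highest. The log2 fold change (WT EE over KD EE, as throughout) was -0.14 ± 0.09 (SE) over 10 libraries (edgeR, unadjusted p = 0.148) and -0.07 ± 0.09 over 7 (unadjusted p = 0.401). A count per gene does not show a point mutation, so these values do not check the genotype. The paralog MSK2 (Rps6ka4), which shares substrates with MSK1, differed by -0.02 ± 0.08 over 10 libraries (unadjusted p = 0.814).

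Few genes differed between the enriched genotypes at the thresholds of the study, namely 0.05 for the adjusted p and 0.38 for the size of the log2 fold change. Over 10 libraries, edgeR called 0 of 18482 genes (0%). At an unadjusted p under 0.05 there were 482 genes, 272 of them higher in WT EE (1.47% of those tested) and 210 lower (1.14%), and the lowest adjusted p rounded to 1. The 482 genes are 2.61% of those tested, a smaller share than this threshold gives when no gene differs. DESeq2 likewise called 0 genes over 10 libraries, with 715 at an unadjusted p under 0.05. Over the 7 libraries, edgeR called 1 of 18701 genes (0.00535%), which was Amd2, and 1196 genes had an unadjusted p under 0.05, with 792 higher (4.24%) and 404 lower (2.16%) in WT EE. The median log2 fold change over all genes tested was 0.00 in both comparisons.

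The 7 libraries are among the 10, so the comparisons are not independent and are set side by side only as a description. Of the 1196 genes at an unadjusted p under 0.05 over 7 libraries, 219 were also under 0.05 over 10 (18.3% of the former list and 45.4% of the 482 of the latter). For 1135 of the 1170 that were tested in both, the log2 fold change was smaller in size over 10 libraries, and the median of its size over the 7-library list was 0.41 with 7 libraries and 0.18 with 10. Each removed library was compared with the mean levels of the 7 kept libraries for these 1196 genes. The WT EE library 35A was nearer to the KD EE mean for 1045 genes (87.4%), the WT EE library 31B was nearer to the KD EE mean for 902 (75.4%), and the KD EE library 9 was nearer to its own group's mean for 814 (68.1%).

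Amd2 was the only gene that edgeR called in either comparison, and the difference lay in 4 KD EE libraries that had almost no reads on it. Its level was 3.58, 3.54, 5.47, 2.32 and 5.74 CPM in WT EE libraries 16, 17, 33A, 31B and 35A. In KD EE it was at 0 counts in library 7 and at 0.130 (4 counts), 0.272 (9 counts) and 0.200 CPM (6 counts) in libraries 8, 32A and 36A, but at 6.68 CPM (61 counts) in library 9, which was above every WT EE library. Without library 9 the groups did not overlap, and with it they did. WT EE exceeded KD EE by a log2 fold change of 4.56 ± 0.71 over 7 libraries (edgeR, adjusted p = 0.0367) and 2.16 ± 0.78 over 10 (unadjusted p = 0.0103). Leaving out library 9 alone from the 10 gave an adjusted p of 0.00916 in edgeR. Leaving out any single library from the 7 gave an adjusted p between 0.0800 and 0.171 and no call, and DESeq2 with a prior on the fold changes did not call Amd2. Over all settings run, its log2 fold change ranged from 0.22 to 5.24 over 7 libraries and from 0.05 to 4.55 over 10, so its size depends on the setting.

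The pattern of Amd2 was not restricted to KD EE. In standard housing it was between 2.80 and 5.51 CPM in all 6 KD SH libraries and between 2.80 and 6.14 CPM in 5 WT SH libraries, whereas WT SH library 13 had 0.222 CPM (9 counts). Over the 22 libraries, 5 were therefore under 1 CPM and 17 over 2 CPM, and none lay between. In standard housing the genotypes differed by -0.20 (unadjusted p = 0.729), and the interaction of genotype and housing was 2.36 ± 0.97 over 22 libraries (unadjusted p = 0.0224), which did not pass after adjustment. Amd1 was between 78.8 and 99.3 CPM in the enriched libraries and differed by -0.12 ± 0.07 over 10 (unadjusted p = 0.112). The part that reads of Amd1 have in the count of Amd2 was not tested.

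**Figure D1:**
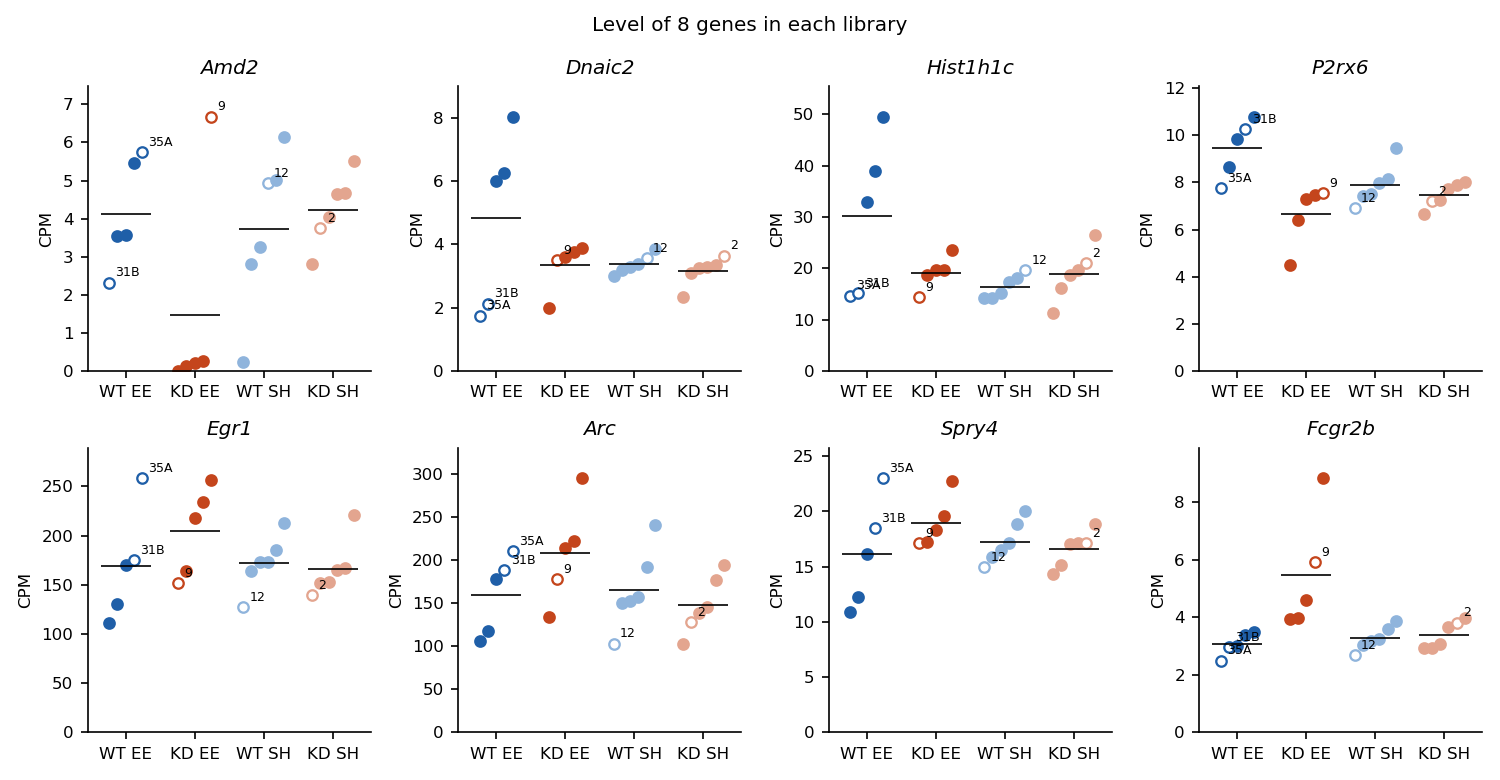
Level of 8 genes in CPM (vertical axis, linear) in each library of the 4 groups WT EE, KD EE, WT SH and KD SH, where each point is a library, open symbols mark the libraries that the study removed (31B, 35A, 9, 12 and 2), and the black line is the group mean. For Amd2, 4 KD EE libraries lie at or under 0.272 CPM and the removed library 9 lies at 6.68 CPM, while for Dnaic2 and Hist1h1c the removed WT EE libraries lie well under the 3 kept ones.

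The study's own table of this comparison holds 11 genes, which it selected on the same 7 libraries, so their direction there is not independent evidence. Here 9 of the 11 were higher and 2 (Egr1 and Spry4) were lower in WT EE over the 7 libraries at an unadjusted p under 0.05 (against 4.24% and 2.16% of all genes), and none was called by edgeR after adjustment. Of the 11, 9 had all 3 WT EE libraries above all 4 KD EE libraries, against 786 (4.20%) of all genes tested, and 1 had them all below, against 414 (2.21%). Over 10 libraries, 5 were higher at an unadjusted p under 0.05 and 0 lower (against 1.47% and 1.14% of all genes), and the median log2 fold change of the 11 was 0.48, compared with 0.87 over 7. P2rx6 was the one of them whose 5 WT EE libraries all lay above the 5 KD EE libraries, which 40 of all genes did (0.216%). Chance alone gives this order in 1 of the 252 ways to divide the 10 libraries, which is a larger share. DESeq2 without a prior on the fold changes called 18 genes over the 7 libraries, and the 11 and Amd2 were among them. With a prior it called 7, all of them among the 11.

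Dnaic2, which encodes an intermediate chain of the axonemal dynein arm of motile cilia, had the lowest p of the 11 over 7 libraries. It lies at chr11:114727408-114757889. Its level was 6.01, 8.04 and 6.26 CPM in the kept WT EE libraries 16, 17 and 33A, 2.12 and 1.75 CPM in the removed libraries 31B and 35A, and 1.99, 3.89, 3.60, 3.77 and 3.50 CPM in KD EE libraries 7, 8, 32A, 36A and 9. The kept WT EE libraries were all above the KD EE range, and the removed ones were at its lower end or below it. Its log2 fold change was 0.98 ± 0.17 over 7 libraries (edgeR, unadjusted p = 1.18e-05, adjusted p = 0.110) and 0.48 ± 0.28 over 10 (unadjusted p = 0.102).

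Hist1h1c, at chr13:23738808-23740367, encodes the linker histone H1.2. Its level was 32.9, 49.6 and 38.9 CPM in libraries 16, 17 and 33A, 15.2 and 14.7 CPM in libraries 31B and 35A, and 19.8, 18.6, 19.6, 23.5 and 14.3 CPM in the 5 KD EE libraries. Again the removed WT EE libraries lay below the KD EE libraries other than library 9. This gave a log2 fold change of 0.98 ± 0.18 over 7 (edgeR, adjusted p = 0.128) and 0.63 ± 0.25 over 10 (unadjusted p = 0.0187). In standard housing Hist1h1c was 16.4 ± 2.24 CPM in WT SH and 18.9 ± 5.08 CPM in KD SH (SD, n = 6 each), so the 3 kept WT EE libraries were also above both standard-housed means. Hist1h1e (histone H1.4) was 1.49, 2.89, 2.01, 1.16 and 0.848 CPM in WT EE and 0.459, 0.745, 0.484, 1.17 and 0.438 CPM in KD EE, with a log2 fold change of 1.23 ± 0.38 over 10 libraries (unadjusted p = 0.00342). Of the replication-dependent histone genes, 4 of the 15 tested over 10 libraries were higher in WT EE at an unadjusted p under 0.05 (against 1.47% of all genes) and 0 were lower, and over 7 libraries these counts were 4 (against 4.24% of all genes) and 0 of 16. Hist1h1c, a study gene, is among the 4 in each comparison. Most RNAs of replication-dependent histone genes carry no polyA tail, so a polyA library holds only part of them.

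P2rx6 encodes a subunit of the ATP-gated P2X cation channels and lies at chr16:17561885-17577800. It was 8.68, 9.84, 10.8, 10.3 and 7.78 CPM in WT EE libraries 16, 17, 33A, 31B and 35A, and 4.52, 7.45, 7.29, 6.40 and 7.56 CPM in KD EE libraries 7, 8, 32A, 36A and 9. The groups did not overlap over the 10 libraries, though the lowest WT EE library (35A) lay close to the highest KD EE library (9). The log2 fold change was 0.50 ± 0.12 over 10 libraries (edgeR, unadjusted p = 4.19e-04, not passing after adjustment) and 0.58 ± 0.14 over 7 (adjusted p = 0.317). In standard housing P2rx6 was 7.91 ± 0.880 CPM in WT SH and 7.46 ± 0.514 CPM in KD SH (SD, n = 6 each). P2rx6 overlaps Slc7a4 on the other strand, and an unstranded count cannot separate their reads where they overlap.

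Of the other study genes that were higher in WT EE, Rarres2, which encodes the chemoattractant chemerin, was 4.76, 5.18, 3.95, 3.15 and 2.26 CPM in WT EE and 1.91, 2.63, 2.51, 2.80 and 1.97 CPM in KD EE. Only library 35A lay within the KD EE range, and the log2 fold change was 0.65 ± 0.19 over 10 libraries (edgeR, unadjusted p = 0.00241) and 0.87 ± 0.18 over 7 (adjusted p = 0.195). Cdhr3, a cadherin of ciliated cells, was 4.76, 4.94, 4.50, 3.18 and 2.42 CPM in WT EE and 1.91, 2.43, 3.09, 2.20 and 4.38 CPM in KD EE, where library 9 was the highest. Its log2 fold change was 0.52 ± 0.22 over 10 and 0.94 ± 0.19 over 7 libraries (adjusted p = 0.195). The lincRNA gene Gm28578 differed by 1.16 ± 0.23 over 7 and by 0.73 ± 0.25 over 10 libraries, Pih1d2, a PIH-domain gene, by 0.88 ± 0.20 and 0.27 ± 0.27, Vwa5b1 by 0.78 ± 0.18 and 0.46 ± 0.35, and Gm11992 by 0.76 ± 0.16 and 0.35 ± 0.25. Rarres2, Cdhr3, Gm28578, Pih1d2 and Gm11992 also overlap a gene on the other strand.

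**Figure D2:**
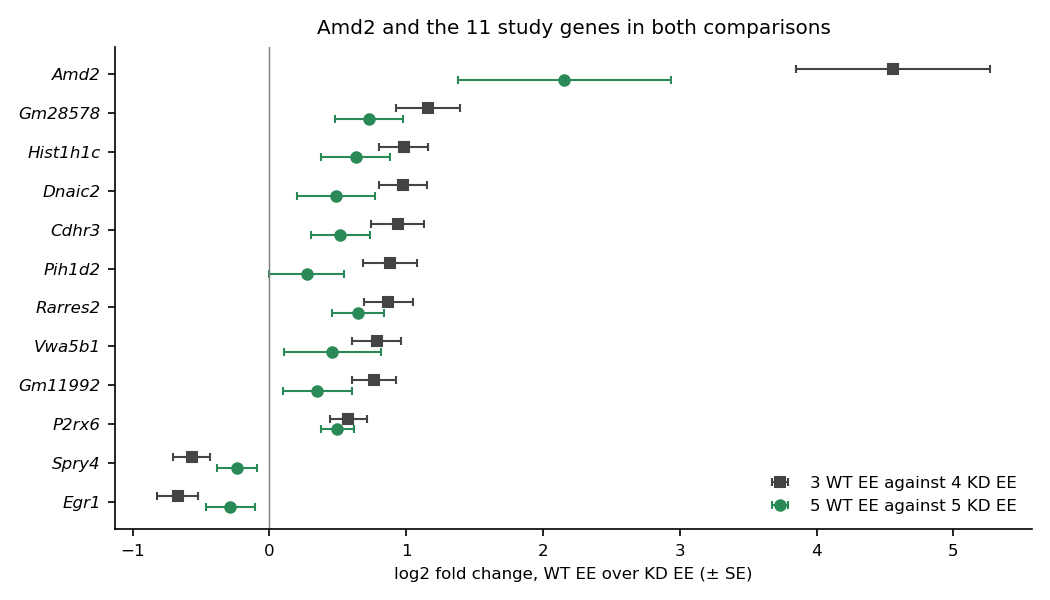
Log2 fold change of WT EE over KD EE (horizontal axis, error bars SE of the edgeR fit) for Amd2 and the 11 study genes, with grey squares for the 7 libraries the study kept and green circles for all 10. The circles lie nearer to 0 than the squares for all of these genes, and P2rx6 moves least, from 0.58 to 0.50.

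Some genes induced by neuronal activity were lower in WT EE at an unadjusted p under 0.05 among the 7 kept libraries, and none at an adjusted p of 0.05 in edgeR, although DESeq2 called Egr1 with and without a prior. Egr1, an immediate early transcription factor and a target of the MSK1 and CREB route, was 131, 112, 169.8, 175 and 259 CPM in WT EE libraries 16, 17, 33A, 31B and 35A, and 218, 164, 257, 234 and 151 CPM in KD EE libraries 7, 8, 32A, 36A and 9. Library 35A was the highest of all and library 9 was below every other KD EE library, so the groups overlapped. The log2 fold change was -0.67 ± 0.15 over 7 libraries (edgeR, adjusted p = 0.300) and -0.28 ± 0.18 over 10 (unadjusted p = 0.123).

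Arc, whose product regulates AMPA receptor endocytosis at synapses, was 105, 117, 178, 188 and 210.4 CPM in WT EE and 222, 134, 295, 214 and 178 CPM in KD EE. The groups overlapped in both comparisons, and the log2 fold change was -0.70 ± 0.23 over 7 libraries (edgeR, adjusted p = 0.591) and -0.39 ± 0.22 over 10 (unadjusted p = 0.0811). Spry4, a feedback inhibitor of receptor tyrosine kinase signalling, was 12.2, 10.9, 16.1, 18.5 and 23.0 CPM in WT EE and 19.5, 17.2, 18.3, 22.7 and 17.1 CPM in KD EE. The 3 kept WT EE libraries were below every KD EE library, and both removed WT EE libraries were not. Its log2 fold change was -0.57 ± 0.13 over 7 (adjusted p = 0.317) and -0.24 ± 0.14 over 10 libraries.

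Of 22 immediate early genes, 4 (Egr1, Arc, Homer1 and Nr4a2) had an unadjusted p under 0.05 over 7 libraries, each lower in WT EE, where 2.16% of all genes tested were, 18 had a negative log2 fold change, and the median was -0.26. Over 10 libraries 0 of the 22 were under 0.05, 11 were negative and the median was -0.01. The mean log2 CPM of the 22 was between 5.31 and 5.54 in the enriched libraries whose code carries a letter, of both genotypes. It was between 4.87 and 5.25 in the other enriched libraries. WT EE minus KD EE was -0.11 among the former and -0.17 among the latter. Homer1, a postsynaptic scaffold, differed by -0.38 ± 0.15 over 7 and 0.06 ± 0.19 over 10 libraries, and Nr4a2, an orphan nuclear receptor, by -0.26 ± 0.11 and 0.03 ± 0.14. The values of Fos were -0.43 ± 0.29 and -0.12 ± 0.26, and neither passed an unadjusted p of 0.05. Of 12 feedback genes of the ERK pathway, 5 were lower over 7 libraries at an unadjusted p under 0.05 (Spry4, Dusp6, Dusp5, Spred1 and Spred2), against the same 2.16% of all genes, 0 were higher, and the median was -0.17. Over 10 libraries 0 of 12 were under 0.05 and the median was -0.04. Dusp6, the cytoplasmic ERK phosphatase, differed by -0.37 ± 0.11 and -0.17 ± 0.11. Egr1 and Spry4, counted in these lists, are study genes.

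In the list of 12 genes of the route from BDNF to CREB and its targets, 0 were under an unadjusted p of 0.05 over 10 libraries, and the median log2 fold change was 0.00. Over 7 libraries 3 were, all lower in WT EE (Egr1, Arc and Creb1) against 2.16% of all genes, and none passed after adjustment in edgeR. Bdnf was 37.5, 45.9, 44.1, 41.6 and 46.6 CPM in WT EE and 53.4, 34.7, 40.0, 45.6 and 33.5 CPM in KD EE, with a log2 fold change of 0.05 ± 0.10 over 10 libraries. Its receptor gene Ntrk2 differed by 0.02 ± 0.06, the kinase gene Mapk3 (ERK1) by 0.04 ± 0.08, and Mapk14 (p38 alpha) by -0.02 ± 0.05. Creb1 differed by -0.20 ± 0.10 over 7 libraries (unadjusted p = 0.048) and by -0.08 ± 0.10 over 10. Of the 9 genes of MSK, RSK and related kinases, 0 were under 0.05 in either comparison.

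As a description of sequence, the letters TGACG, the core of the CREB binding motif, were sought on both strands in the promoter windows of RefSeq (GRCm38.p6). They were present in 6837 of all 32851 windows (20.81%), in 12 of the 16 immediate early genes with a window (75%), in 3 of 9 ERK feedback genes (33.33%), in 2 of 8 genes of the BDNF to CREB list (25%) and in 1 of 8 study genes (12.5%). The full motif, TGACG followed directly by TCA, was present in 588 of all windows (1.79%), in 2 of the immediate early genes (Btg2 and Dusp1) and in 0 of the other 3 lists. A match is not evidence of binding.

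**Figure D3:**
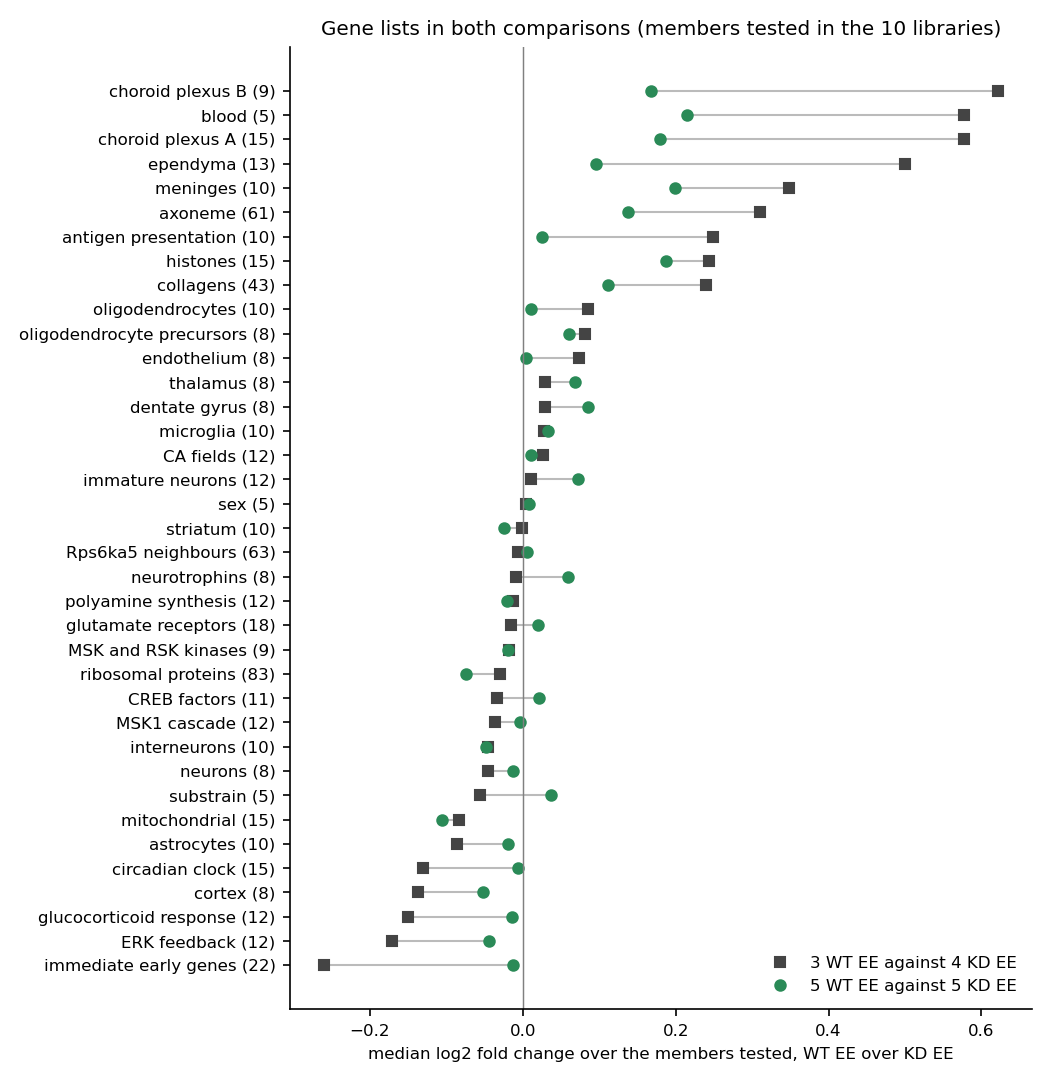
Median log2 fold change of WT EE over KD EE (horizontal axis) for 37 gene lists, with the number of members tested in brackets, grey squares for the 7 kept libraries and green circles for all 10. The choroid plexus, ependyma and blood lists lie near 0.5 to 0.6 over 7 libraries and nearer to 0 over 10, and the immediate early genes move from -0.26 to -0.01.

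A share of the genes of motile cilia and of the cells that line the ventricles was higher in WT EE among the 7 libraries at an unadjusted p under 0.05, with none called by edgeR after adjustment, although DESeq2 called Dnaic2, Rarres2 and Cdhr3 with and without a prior. Of 61 axonemal genes tested, 20 were higher by that measure (against 4.24% of all genes tested), 0 were lower, and 25 had all 3 WT EE libraries above the 4 KD EE libraries (against 4.20% of all genes). The median log2 fold change of the 61 was 0.31, and 7 had a negative one. Besides Dnaic2, the radial spoke gene Rsph1 differed by 0.67 (unadjusted p = 4.62e-04) and the cilia and flagella associated gene Cfap44 by 0.54 ± 0.14. Over 10 libraries, 2 of 61 (Dnah2 and Dnah17, both dynein heavy chains) were higher at an unadjusted p under 0.05 (against 1.47% of all genes), the median was 0.14, and none had groups that did not overlap. Of 13 ependymal markers, 7 were higher by the same measure over 7 libraries (median 0.50) and 2, Rarres2 and Cdhr3, over 10 (median 0.10). Rarres2 and Cdhr3 are study genes as well as ependymal markers, and Dnaic2 is an axonemal gene.

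Choroid plexus RNA varied widely between the enriched libraries of both genotypes. Ttr, the transthyretin gene and the most abundant choroid plexus transcript, was 4738, 3692, 4651, 41.8 and 34.2 CPM in WT EE libraries 16, 17, 33A, 31B and 35A, and 901, 1969, 2687, 5105 and 164 CPM in KD EE libraries 7, 8, 32A, 36A and 9. The 3 libraries that the study removed had the least, and the highest of the 10 was KD EE library 36A. Ttr differed by 0.70 ± 0.88 over 7 libraries and 0.27 ± 1.34 over 10, neither at an unadjusted p under 0.05. For 9 choroid plexus markers that are in none of the study's tables, the mean log2 CPM was 5.88, 5.63, 6.19, -0.14 and 0.08 in WT EE and 3.62, 4.91, 5.40, 6.12 and 1.35 in KD EE.

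Lists of ventricular, meningeal and blood cells had 1 direction over the 7 libraries, that of most study genes. Over 7 libraries all 9 of these choroid plexus markers, all 15 of a second choroid plexus list that is made of genes in the study's tables, all 13 ependymal markers, all 10 meningeal markers and all 5 blood markers had a positive log2 fold change, with 0, 2, 7, 4 and 4 higher at an unadjusted p under 0.05, against 4.24% of all genes tested. Igf2 is on both the second choroid plexus list and the meningeal list. The study selected the genes of the second choroid plexus list on these same kept libraries, so their shared direction is not independent evidence. The medians were 0.62, 0.58, 0.50, 0.35 and 0.58. Over 10 libraries the medians were 0.17, 0.18, 0.10, 0.20 and 0.21, although the group means of the 9-marker log2 level differed by -0.75, of the other sign. With the choroid plexus level as a covariate, edgeR called 0 genes over the 7 libraries, and the lowest adjusted p was 0.0686, that of Amd2. With and without the covariate, the log2 fold change was 4.47 and 4.56 for Amd2, and 0.93 and 0.98 for Dnaic2. It was 0.86 and 0.98 for Hist1h1c, and 0.88 and 0.87 for Rarres2. That of Egr1 was -0.67 in both, and none of the 11 study genes changed direction. The covariate is the level of the 9 choroid plexus markers alone and does not stand for the ependymal, meningeal or blood lists. In bulk RNA, fewer cells of a type and less RNA per cell cannot be told apart. The part of these cell types in the differences was not tested.

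**Figure D4:**
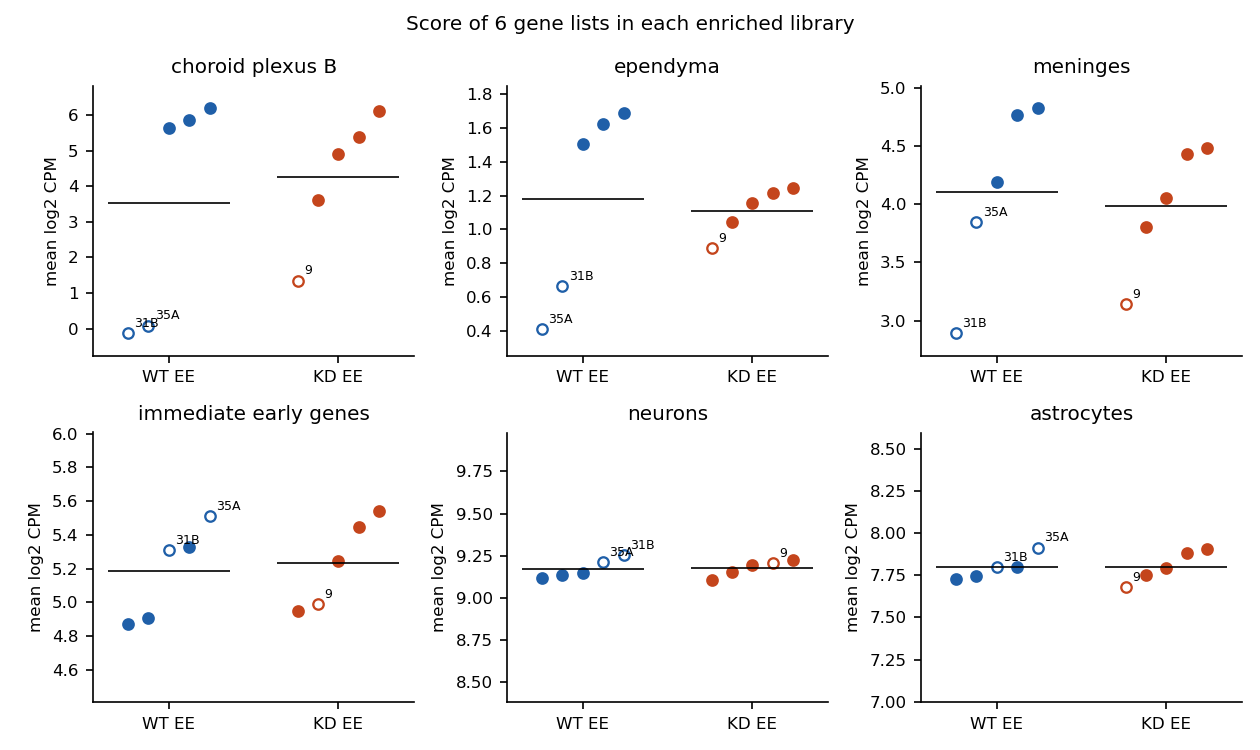
Mean log2 CPM (vertical axis) of the markers of choroid plexus, ependyma and meninges, of immediate early genes, of neurons and of astrocytes in each of the 10 enriched libraries, with open symbols for the removed libraries 31B, 35A and 9. The 9-marker choroid plexus level spans from -0.14 to 6.19 while the neuronal level stays between 9.11 and 9.25.

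The library codes with a letter (33A, 31B and 35A in WT EE, 32A and 36A in KD EE) were examined as a possible separate set, although the sources used here do not say what the letter stands for. Within the libraries without a letter, Hist1h1c was 41.2 CPM in WT EE (2 libraries) and 17.6 CPM in KD EE (3 libraries), and within those with a letter it was 22.9 CPM (3 libraries) and 21.6 CPM (2 libraries). Dnaic2 was 7.02 and 3.13 CPM without a letter, and 3.38 and 3.68 CPM with one. Vwa5b1 likewise changed order, from 12.0 against 4.86 CPM to 6.79 against 7.98 CPM. So did lists of ventricular cells. The mean log2 CPM of the 9 choroid plexus markers differed (WT EE minus KD EE) by 2.47 without a letter and by -3.71 with one. For the ependymal list these values were 0.53 and -0.31, and for the axonemal list 0.55 and -0.23. P2rx6 was higher in WT EE within both sets, at 9.26 against 6.51 CPM and 9.62 against 6.85 CPM. So was the mean of Amd2, at 3.56 against 2.27 CPM and 4.51 against 0.236 CPM. The KD EE mean of 2.27 CPM includes library 9 at 6.68 CPM, above both WT EE libraries of that set, so the groups overlapped there. Egr1 was lower in WT EE within both, at 121 against 178 CPM and 201 against 245 CPM. Both removed WT EE libraries carry a letter. No test of a named gene within the sets is given here. The number of genes called without the lettered libraries is given with the processing alternatives.

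Outside the study's list, the lowest p over all 10 libraries belonged to Fcgr2b, the inhibitory Fc receptor of immune cells. It was 3.38, 3.50, 3.00, 2.95 and 2.49 CPM in WT EE and 4.59, 3.95, 8.83, 3.97 and 5.91 CPM in KD EE. Each WT EE library was below each KD EE library, which 24 of all genes tested showed (0.130%), a smaller share than chance alone gives. The log2 fold change was -0.85 ± 0.18 (edgeR, unadjusted p = 9.04e-05, not passing after adjustment) over 10 libraries and -0.72 ± 0.22 over 7, and -0.05 in standard housing. Fcgr2b overlaps Gm38204 on the other strand. Fcer1g, the shared signalling chain of Fc receptors, differed by -0.43 ± 0.12 over 10 libraries, with groups that overlapped. The 10 markers of microglia, in which such receptors are found, had a median log2 fold change of 0.03 and 0 of 10 under an unadjusted p of 0.05.

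S100a10, which encodes the annexin A2 partner p11, was 9.65, 9.08, 8.68, 8.99 and 8.93 CPM in WT EE and 10.5, 11.2, 13.6, 10.8 and 10.2 CPM in KD EE. Kif24, a kinesin that acts at the centriole, was 2.84, 2.25, 2.27, 2.09 and 2.45 CPM in WT EE and 0.995, 1.65, 1.91, 1.60 and 0.548 CPM in KD EE. Neither gene's groups overlapped, and the log2 fold changes over 10 libraries were -0.33 ± 0.10 for S100a10 (edgeR, unadjusted p = 0.00198) and 0.72 ± 0.22 for Kif24 (unadjusted p = 0.00285). Over 7 libraries they were -0.35 ± 0.11 and 0.62 ± 0.23. Both genes were named for a low p over 10 libraries, whereas the study selected its genes on the 7. How their sizes move between the 2 comparisons therefore cannot be set against the study genes. The remaining genes with the lowest p over 10 libraries were Ccdc158 (0.80 ± 0.19), Mterf1a (-0.74 ± 0.19), which encodes a mitochondrial transcription termination factor, Flnc (0.64 ± 0.18), which encodes filamin C, and F630040K05Rik (0.84 ± 0.24). None of them passed after adjustment.

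Over the 7 libraries, the genes of lowest p besides Amd2 and the study's list were Bhlhe40, an activity-regulated transcriptional repressor (-0.40 ± 0.08), Ttc30b, a component of intraflagellar transport (0.42 ± 0.09), and Slc38a3, a glutamine transporter (0.38 ± 0.09), with adjusted p of 0.195, 0.233 and 0.300 in edgeR. Over 10 libraries they differed by -0.13 ± 0.11, 0.29 ± 0.10 and 0.13 ± 0.15. Odc1, which encodes the rate-limiting ornithine decarboxylase of polyamine synthesis, was besides Amd2 the gene of that list under an unadjusted p of 0.05 over 7 libraries, at 0.26 ± 0.08, and over 10 it was at 0.13 ± 0.09. The other 10 of the 12 polyamine genes were not under 0.05 in either comparison. Of all genes tested over 7 libraries, 4.24% were higher in WT EE by that measure.

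For markers of the hippocampal cell types themselves, the median log2 fold changes over 10 libraries were -0.01 for neurons, 0.09 for dentate gyrus, 0.01 for the CA fields, -0.05 for interneurons, -0.02 for astrocytes and 0.01 for oligodendrocytes, with 0 members of these lists under an unadjusted p of 0.05. Over 7 libraries the medians were -0.05, 0.03, 0.03, -0.05, -0.09 and 0.09. Under an unadjusted p of 0.05 there were then 0 neuronal and 0 dentate gyrus markers, 1 higher and 1 lower of the CA fields, 1 lower of interneurons, 1 higher and 3 lower of astrocytes, and 1 higher of oligodendrocytes, none of them called by edgeR, out of 8, 8, 12, 10, 10 and 10 tested and against 4.24% higher and 2.16% lower of all genes. The last was Opalin, a myelin gene, at 0.56 ± 0.14 (edgeR, adjusted p = 0.366), with all 3 WT EE libraries above the 4 KD EE libraries. All 8 markers of the neighbouring neocortex had a negative log2 fold change in both comparisons, with 0 under an unadjusted p of 0.05 over 10 libraries and 1 over 7, and medians of -0.05 over 10 and -0.14 over 7 libraries. The mitochondrial transcripts mt-Co2, mt-Atp6 and mt-Co3 were lower in WT EE over 10 libraries at an unadjusted p under 0.05, and this rested on library 9, which had 51.7 CPM of mt-Co2 against 3.72 to 9.88 CPM in the other enriched libraries. Over 7 libraries mt-Co2 differed by -0.01 ± 0.38.

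Genes near Rps6ka5 were examined because the KD line was made at this locus. Within 5 Mb on either side lay 149 annotated positions of genes in the files, with Gm25203 at more than 1 of them. Of these, 63 were tested. Over 10 libraries, 1 was higher and 1 lower in WT EE at an unadjusted p under 0.05, a share near the 1.47% and 1.14% of all genes. Ttc8, a component of the BBSome that takes part in ciliary transport, was the higher one, with all 5 WT EE libraries above the KD EE libraries and a log2 fold change of 0.15 ± 0.06, and Psmc1, a proteasome subunit, the lower one at -0.10 ± 0.04.

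The interaction of genotype and housing asks whether the genotypes differed in enriched housing by another amount than in standard housing. edgeR called 0 of 18482 genes (0%) over 22 libraries, with 377 (2.04%) at an unadjusted p under 0.05. That share is smaller than this threshold gives when no gene differs. DESeq2 called 0, with 574 under 0.05. In standard housing itself 0 genes were called between the genotypes, with 1065 at an unadjusted p under 0.05. For single genes the interaction was 0.84 for Hist1h1c (unadjusted p = 0.0201), 0.41 for P2rx6 (unadjusted p = 0.0193), 0.60 for Rarres2 (unadjusted p = 0.0263), 0.61 for Cdhr3 (unadjusted p = 0.043) and -0.80 for Fcgr2b (unadjusted p = 0.00338). It was 0.40 for Dnaic2 (unadjusted p = 0.310), -0.34 for Egr1 (unadjusted p = 0.166) and -0.57 for Arc (unadjusted p = 0.0637). Over the 17 libraries that the study kept, edgeR called 0 of 18701 genes (0%), with 1031 at an unadjusted p under 0.05 and a lowest adjusted p of 0.123, that of Amd2. There the interaction was 4.90 for Amd2, 1.22 for Hist1h1c, 0.47 for P2rx6, 0.76 for Rarres2, 0.92 for Cdhr3 and -0.75 for Fcgr2b. It was 0.87 for Dnaic2 (unadjusted p = 0.00102), -0.76 for Egr1 (unadjusted p = 8.15e-04) and -0.94 for Arc (unadjusted p = 0.00457). None of these passed after adjustment over all genes in either set. Apart from Arc, these genes were picked by their difference between the enriched genotypes, which is itself part of the interaction. Their small unadjusted p-values here are therefore not separate evidence.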

How the data were processed

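RNA of whole hippocampus was sequenced as polyA libraries of 150-bp paired-end reads. After adapter trimming with Skewer, the authors mapped the reads to GRCm38 with STAR 2.5 and counted those aligned uniquely to a gene with HTSeq, ignoring strand, and the deposited files hold these raw counts for 49568 gene symbols, without normalization. A table of size-factor scaled values was not used, and of the tables of the authors' own comparisons only the gene names were used, for the 11 study genes and to divide the choroid plexus markers. Positions come from GENCODE M21 (GRCm38), which holds 47240 of the symbols.

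Counts were analysed with edgeR 4.0.16 in R 4.3.3: filterByExpr, TMM scaling, and a quasi-likelihood fit with 1 mean per group, over 22 libraries for the 10-library comparison and over 17 for the 7-library one. The spread is thus shared over all 4 groups. Benjamini–Hochberg adjustment was over all genes tested. CPM were TMM-scaled over the 22 libraries, and list levels are means of log2 CPM with a prior count of 2. The fit was tested on simulated data. Alternatives were DESeq2 1.42.0, other filters and scalings, a covariate for the letter of the library code or the choroid plexus level, and leaving out libraries. No paired analysis was possible because the groups share no replicate numbers.

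Named genes were Rps6ka5 and Rps6ka4, the study and MSK1 cascade genes, and the 10 of lowest p (at 1 CPM or more) in each comparison. The called gene Amd2 is among the latter. Also named were up to 4 of each list and up to 3 neighbours of Rps6ka5, by lowest p over 10 libraries. Some further list members were named after their values were seen (Homer1, Nr4a2, Fos, Spred1, Spred2, Rsph1). The members and lists were chosen with earlier results of these data known.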

Additional observations from a re-analysis of the deposited data

Results flagged for a closer look

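Within each group of 5 enriched libraries, the gap between the extreme library and its nearest neighbour was set against the range of the group for 92 group values on the log2 CPM scale (prior count of 2), and 2 exceeded the 95% critical ratio of 0.71. Dnaic2 in KD EE had a ratio of 0.84, since library 7 (1.99 CPM) lay below the other 4 (3.50 to 3.89 CPM). Gm28578 in WT EE had a ratio of 0.76, since library 35A (0.920 CPM) lay below the other 4 (1.46 to 1.69 CPM). On the linear CPM scale the ratios differ, and Amd2 in KD EE, where library 9 stands apart, would exceed it. Chance exceeds this ratio in about 1 of 20 groups, so 2 of 92 is not an excess.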

How the results depend on the processing

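Over 10 libraries edgeR called 0 genes, and 2 (Dnaic2 and Hist1h1c, both at an adjusted p of 0.0473) without libraries 31B and 35A. With the 22-library fit less 31B, 35A and 9 it called 1 (Amd2, adjusted p = 0.0228), and leaving out each library in turn gave 0 to 1 (Amd2, without library 9). Over 7 libraries the count was 1, and became 18 with DESeq2, 7 with DESeq2 and a prior, 25 with no filter on low counts, 0 with a minimum of 10 counts in every library, 2 with only the enriched groups (Amd2 and Hist1h1c), 16 without the lettered libraries, 0 with the choroid plexus covariate, and 0 to 0 without each library in turn (Amd2 at an adjusted p from 0.0800 to 0.171). The cause was not tested. Over 7 libraries, letter as a covariate, DESeq2 size factors and the adjusted p alone each gave 1. The interaction stayed at 0 in every alternative run. Amd2 ranged from 0.05 to 4.55 over 10 and from 0.22 to 5.24 over 7 libraries. Among the genes run through these alternatives, the sign reversed for Rps6ka4 alone, whose value over 10 libraries is near 0. It went to 0.00585 without the lettered libraries and to 0.0227 without 31B and 35A, and ranged from -0.067 to 0.0346 without single libraries. Homer1 and Nr4a2, which differ in sign between the 7 and the 10 libraries, were not among the genes run. Both comparisons rest on few libraries, and library 9 has the lowest depth.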
